A study of Bos taurus with 6 samples.

Results

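The 10 genes described here build the neuromuscular junction, the synapse at which a motor axon makes a muscle fibre contract. They are *AGRN*, *LRP4*, *MUSK*, *DOK7*, *RAPSN* and the muscle subunits of the nicotinic acetylcholine receptor, *CHRNA1*, *CHRNB1*, *CHRND*, *CHRNE* and *CHRNG*. They were chosen by name, with earlier results of these data known, and were all found among the 17258 genes listed. The expression of a gene in an animal was the sum of the FPKM of its transcripts, a read depth scaled to transcript length and library size. Unnamed transcripts from the assembly were added where 50% or more of the transcript lay on its exons and on its strand.

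The longissimus dorsi, a muscle of the back, was sequenced as bulk RNA in 3 Shandong black and 3 Luxi cattle aged 18 months, with 1 library for each animal and no treatment. The Shandong black breed descends from Japanese black, Luxi and Bohai black cattle and was developed through somatic cell cloning and embryo transfer. The breeds came from different farms, so breed and farm cannot be told apart. Each library rested on 14.1 to 14.6 gigabases of aligned sequence in Shandong black cattle and on 17.5 to 17.99 gigabases in Luxi cattle.

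At the junction, agrin released by the nerve binds LRP4 on the muscle membrane, and LRP4 activates the receptor tyrosine kinase MuSK. The adaptor DOK7 binds MuSK from inside the fibre and keeps it active. Rapsyn, the product of *RAPSN*, then holds the acetylcholine receptors in a dense patch under the nerve terminal. The receptor is a channel of 5 subunits. In mammals the fetal gamma subunit (*CHRNG*) is replaced by the epsilon subunit (*CHRNE*) as the muscle matures. In innervated fibres most of these transcripts come from the few nuclei beneath the synapse. In bulk tissue, fewer synaptic nuclei and less RNA per nucleus cannot be told apart.

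The labelled tissue was checked by its markers first. The skeletal actin *ACTA1* was at 12237 to 54910 FPKM and myoglobin (*MB*) at 5733 to 8932 FPKM. Luxi replicate 1 stood apart in *ACTA1* and desmin (*DES*). It held the lowest *ACTA1* and the lowest *DES*, 174 FPKM against at least 1249 in the other 5 animals. It also had the most transcripts, 175373, and the largest share of FPKM outside named genes, 30.8% against 21.9 to 28.4% in the others. Shandong black replicate 2 came next in both, with 161263 transcripts and 28.4%. The fibre markers did not all go the same way. The creatine kinase gene *CKM* was also lowest in Luxi replicate 1 (1832 FPKM). Its *MB* (7894 FPKM) and titin (*TTN*, 625 FPKM) lay within the range of the other animals. Results that rest on this animal are given with and without it.

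Among the members, *CHRNA1* and *RAPSN* had the highest mean FPKM over the 6 animals (16.9 and 16.1), followed by *CHRNB1* (8.34), *CHRNE* (7.71), *DOK7* (3.50), *CHRND* (2.90), *LRP4* (2.63), *AGRN* (1.14), *MUSK* (0.978) and *CHRNG* (0.886). FPKM is per length, but summed over transcripts it also depends on the assembly. By depth over the annotated exons, a measure given below, *CHRNE* (mean 7.08) stood above *CHRNB1* (5.87), and *DOK7* (1.60) below *CHRND* (2.84) and *LRP4* (1.74). By FPKM, neighbours in this order overlapped between animals, except that the lowest *LRP4* value (1.69 FPKM) lay above the highest *AGRN* value (1.52 FPKM). The mean depth behind them ran from 4.87 to 495 reads per base.

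**Figure D1:**
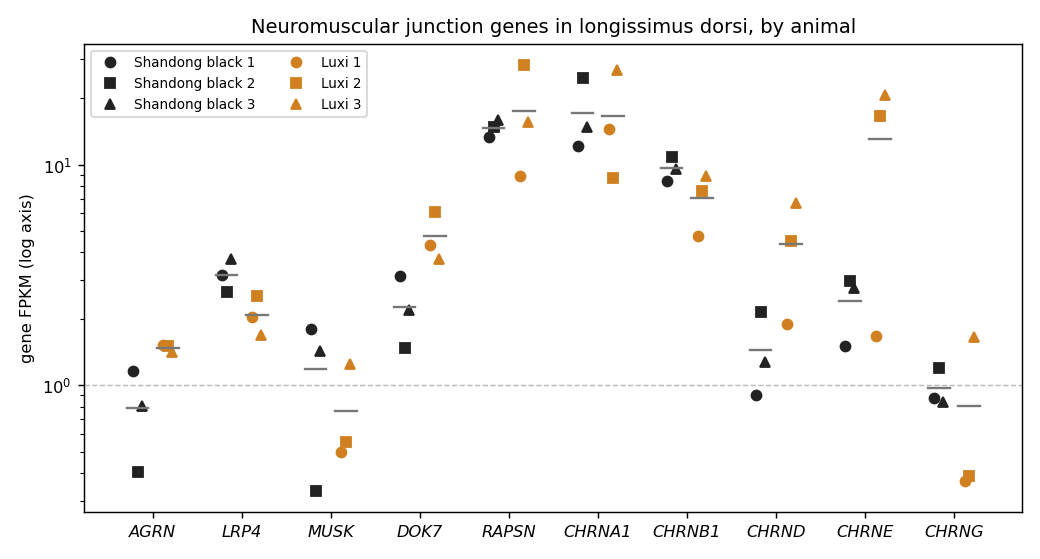
Gene FPKM (log axis) of the 10 neuromuscular junction genes in each animal; dark symbols are Shandong black cattle, orange symbols Luxi cattle, grey bars the mean of each breed (n = 3), and the dashed line 1 FPKM. All Luxi animals lie above all Shandong black animals for *AGRN* and *DOK7* and below them for *LRP4*, and Luxi 2 and Luxi 3 stand far above the other 4 animals for *CHRNE*.

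In the comparison of the breeds, no member changed by the limma test (adjusted p under 0.05 and an absolute log2 fold change of at least 1). With 9 members tested, 0 were called, where 2.55% of the 9765 genes tested were called. *CHRNG* was below the filter of a mean of 1 FPKM in at least 1 breed. Of the 9 members tested, 7 passed that filter in both breeds, *AGRN* passed only through Luxi cattle and *MUSK* only through Shandong black cattle. An unadjusted p under 0.05 was reached by 4 of 9 members and by 21.9% of all genes. The animals of the breeds did not overlap in 3 members, 2 with Luxi higher (20.0% of all genes tested) and 1 with Luxi lower (9.10%). *AGRN* is 1 of the 2 and also had an unadjusted p under 0.05, so its place in these counts rests on its Luxi values. The median log2 fold change, Luxi minus Shandong black, was 0.11 over the 9 members and 0.13 over all genes tested.

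A summed FPKM depends on how the reads were assembled, because a short transcript gives a higher FPKM for the same reads than a long one. The reads were therefore also expressed as depth over the annotated exons: the aligned bases of all transcripts of a gene on its annotated exons, per exon base and per aligned gigabase. This measure was added after the FPKM values had been seen. With it, 0 of 9 members were called (2.95% of 9014 genes), 2 had an unadjusted p under 0.05 (23.7%), 1 member was higher in all Luxi animals (20.4%) and 1 lower in all (10.1%). The higher member, *AGRN*, again passed the filter only through Luxi cattle (mean depth 0.572 in Shandong black and 1.36 in Luxi cattle). The member whose overlap between the breeds differed between the measures was *DOK7*. The unadjusted p of *DOK7* (0.0120 and 0.921 by limma) and of *LRP4* (0.0467 and 0.0554) was under 0.05 by FPKM but not by exon depth.

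**Figure D2:**
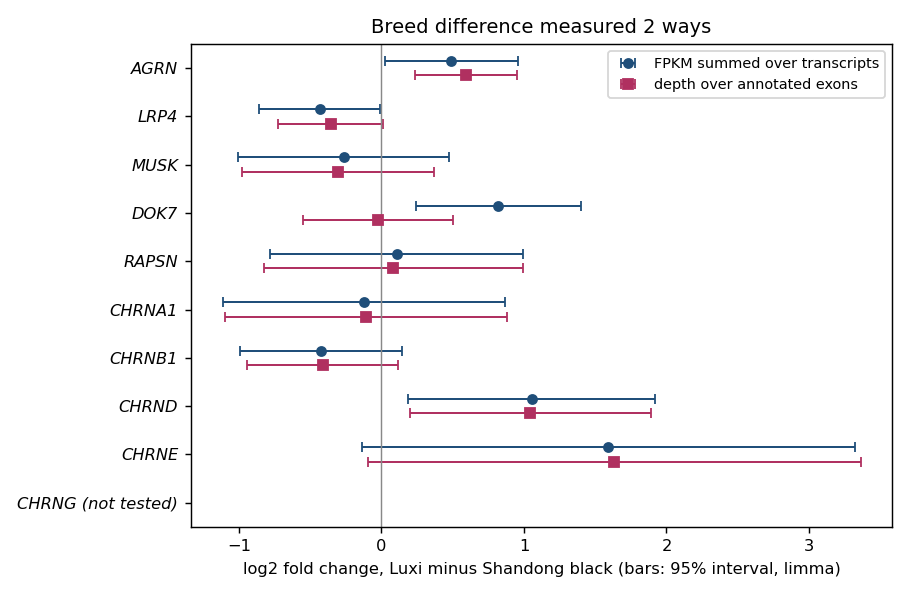
Log2 fold change (Luxi minus Shandong black) of each member with the 95% interval of limma, from FPKM summed over transcripts (circles) and from depth over annotated exons (squares). The *DOK7* value moves from 0.82 to -0.023 between the measures, and those of the other 8 members tested move by at most 0.10; *CHRNG* was not tested.

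Agrin is the ligand that starts the assembly of the synapse. *AGRN* (ARS-UCD1.2 chr16:51422634-51461899, minus strand) was at 1.16, 0.403 and 0.810 FPKM in Shandong black replicates 1 to 3 and at 1.52, 1.502 and 1.42 FPKM in Luxi replicates 1 to 3. All Luxi animals lay above all Shandong black animals and close to each other. The means were 0.791 ± 0.379 and 1.48 ± 0.0528 FPKM (SD, n = 3), a log2 fold change of 0.49 (SE 0.20, adjusted p = 0.211 by limma). By depth over annotated exons, *AGRN* was at 0.546, 0.392 and 0.779 against 1.28, 1.44 and 1.36, and the breeds again did not overlap (log2 fold change 0.59, adjusted p = 0.0777).

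The *AGRN* difference was uneven along the gene. Of the 36 exons of the reference transcript with the most exons, 17 had a higher depth in all Luxi than in all Shandong black animals and 0 a lower one. These lay between exons 3 and 32, and 16 of them before exon 24. At exon 17 the depth per aligned gigabase was 1.4996, 1.65 and 3.37 in Shandong black and 8.39, 7.06 and 8.17 in Luxi cattle. At the last exon it was 0.920, 0.427 and 0.521 against 0.644, 0.850 and 1.40, and the breeds overlapped.

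Agrin made by nerve differs from agrin made by muscle in small alternative exons near the 3′ end of its message, and the nerve form is the potent one in clustering receptors. Among the 14 *AGRN* transcripts of the 6 libraries, 7 held an exon of 12 bases (chr16:51427219-51427230). That exon was on 50.9, 15.02 and 68.2% of the *AGRN* FPKM in Shandong black and on 5.82, 66.8 and 40.6% in Luxi cattle. No transcript held an exon of 24 or of 33 bases, the lengths of the best known exons of the nerve form (0 of 14). The nerve form is made by the nerve, whose part in the RNA of these muscle samples was not measured. Of 9 motor nerve genes 1 had a value, and the others were not analysed here. The absence of these exons therefore tells nothing about the nerve form at these junctions. A use of such exons in a minority of the message was also not detectable at this depth. An upstream first exon (chr16:51461605-51461836) was on 0, 85.0 and 31.8% against 94.2, 33.2 and 0% of the FPKM, so neither feature separated the breeds.

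*LRP4* (chr15:76787303-76840799, minus strand) encodes the muscle receptor for agrin. It was at 3.15, 2.64 and 3.72 FPKM in Shandong black and at 2.04, 2.53 and 1.69 FPKM in Luxi cattle. All Luxi animals lay below all Shandong black animals, with Luxi replicate 2 close to Shandong black replicate 2. The log2 fold change was -0.43 (SE 0.18, adjusted p = 0.223 by limma). By depth over annotated exons the values were 2.31, 1.78 and 2.13 against 1.36, 1.70 and 1.15, again without overlap (log2 fold change -0.36, adjusted p = 0.222). Of 38 exons, 16 were lower in all Luxi animals and 0 higher, and they ran from exon 7 to exon 34.

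The ratio of *AGRN* to *LRP4*, in which any scaling of a library cancels, was 0.369, 0.153 and 0.218 in Shandong black and 0.746, 0.593 and 0.840 in Luxi cattle by FPKM. It was 0.237, 0.220 and 0.366 against 0.939, 0.846 and 1.18 by depth over annotated exons. The breeds could not overlap in this ratio, since *AGRN* was higher and *LRP4* lower in all Luxi animals. The outcome of a test was thus fixed, and no p-value is given. It was 1 of 9 ratios between members computed after their levels had been seen, of which 3 did not overlap by FPKM and 2 by exon depth.

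*MUSK* (chr8:100188491-100287913, plus strand) encodes the kinase that agrin and LRP4 activate. It was at 1.80, 0.333 and 1.43 FPKM in Shandong black and at 0.501, 0.555 and 1.25 FPKM in Luxi cattle. The breeds overlapped, since Shandong black replicate 2 was the lowest of all 6 animals. The log2 fold change was -0.26 (SE 0.32, adjusted p = 0.656 by limma). It was -0.05 without Shandong black replicate 1 and -0.59 without Shandong black replicate 2.

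The *MUSK* message is known to carry alternative exons in its extracellular part. Assembled *MUSK* transcripts held 3 short exons that the annotated transcript lacks. They had 30 bases (chr8:100223150-100223179, in 1 of 13 transcripts), 30 bases (chr8:100233443-100233472, in 5) and 24 bases (chr8:100273809-100273832, in 5). The last of these was on 84.9 and 71.1% of the *MUSK* FPKM in Shandong black replicates 1 and 3, on 20.3% in Luxi replicate 3 and on 0% in the other 3 animals. The animals in which any of these exons was assembled were the 3 with the highest *MUSK* level.

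*DOK7* (chr6:115390107-115424826, minus strand) encodes the adaptor of MuSK. Its summed FPKM was 3.13, 1.48 and 2.20 in Shandong black and 4.32, 6.12 and 3.73 in Luxi cattle, so that all Luxi animals were higher (log2 fold change 0.82, SE 0.25, adjusted p = 0.121 by limma). By depth over annotated exons *DOK7* was at 2.097, 0.992 and 1.79 in Shandong black and at 1.06, 1.66 and 1.99 in Luxi cattle. By that measure the breeds overlapped (log2 fold change -0.023, adjusted p = 0.963), and no exon of 11 separated them. In exon 3, the deepest, the depth per aligned gigabase was 10.2, 6.27 and 10.2 against 4.06, 9.39 and 10.1.

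The transcripts assembled for *DOK7* differed in length. Weighted by FPKM, their mean length was 2297, 2238 and 2297 bases in Shandong black and 1171, 947 and 1779 bases in Luxi cattle. The summed FPKM was 1.49, 1.49 and 1.23 times the exon depth in Shandong black and 4.08, 3.69 and 1.87 times in Luxi cattle. The higher *DOK7* FPKM of the Luxi animals thus went with shorter assembled transcripts and not with a higher read depth on the annotated exons. Reference transcripts carried 21.8% of the *DOK7* FPKM, the lowest share among the members, against 98.4% for *CHRNA1*. The ratio of *DOK7* to *LRP4* did not overlap by FPKM (0.561 to 0.993 against 2.12 to 2.42) but did by exon depth (0.557 to 0.909 against 0.778 to 1.73).

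**Figure D3:**
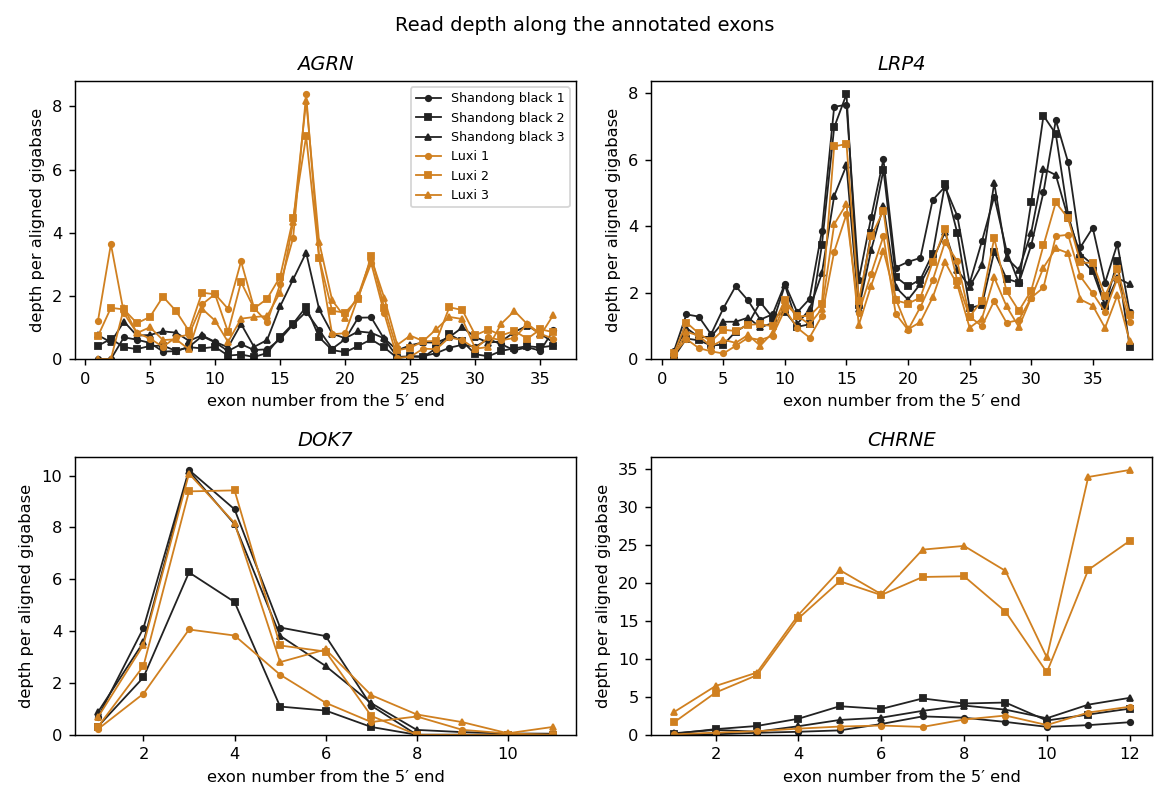
Read depth per aligned gigabase of sequence (vertical axis) at each annotated exon, numbered from the 5′ end (horizontal axis), for *AGRN*, *LRP4*, *DOK7* and *CHRNE* in the 6 animals. Luxi animals (orange) lie above Shandong black animals (dark) over the middle exons of *AGRN* and below them over many exons of *LRP4*, the breeds mix along *DOK7*, and Luxi 2 and Luxi 3 are high along all of *CHRNE* while Luxi 1 lies among or below the Shandong black animals.

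*RAPSN* (chr15:77261077-77273516, minus strand) encodes rapsyn, the scaffold that anchors the receptors. It was at 13.3, 14.8 and 15.9 FPKM in Shandong black and at 8.83, 28.2 and 15.6 FPKM in Luxi cattle. The Luxi animals lay on both sides of the narrow Shandong black range (log2 fold change 0.11, SE 0.38, adjusted p = 0.893 by limma). The sign of this difference turned in 5 other settings, including TPM, the other unit deposited (-0.014), and the fit without Luxi replicate 2 (-0.29).

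*CHRNA1* (chr2:22084351-22103937, plus strand) encodes the alpha subunit, which binds acetylcholine. It was at 12.2, 24.6 and 14.8 FPKM in Shandong black and at 14.4, 8.67 and 26.7 FPKM in Luxi cattle. Each breed had 1 animal far above its others, and the ranges overlapped widely (log2 fold change -0.12, SE 0.42, adjusted p = 0.891 by limma). The sign turned without Shandong black replicate 2 (0.15) or without Luxi replicate 2 (0.24).

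*CHRNB1* (chr19:27121898-27132200, plus strand) encodes the beta subunit. It was at 8.43, 10.8 and 9.59 FPKM in Shandong black and at 4.76, 7.55 and 8.91 FPKM in Luxi cattle. The highest Luxi animal reached into the Shandong black range (log2 fold change -0.42, SE 0.24, adjusted p = 0.349 by limma). Without Luxi replicate 1 the log2 fold change was -0.20 (adjusted p = 0.475).

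*CHRND* (chr2:120166846-120174105, plus strand) encodes the delta subunit. It was at 0.903, 2.15 and 1.27 FPKM in Shandong black and at 1.89, 4.49 and 6.68 FPKM in Luxi cattle. Luxi replicates 2 and 3 lay above all Shandong black animals, and Luxi replicate 1 below Shandong black replicate 2. The log2 fold change was 1.05 (SE 0.37, adjusted p = 0.158 by limma). Without Luxi replicate 1 it was 1.44, and the difference was called (adjusted p = 0.0342). That fit called 596 of 9765 genes, against 249 with all animals. With any other animal left out *CHRND* was not called (adjusted p of at least 0.180 by limma). Relative to *CHRNA1* in the same animal, *CHRND* was at 0.0742, 0.0872 and 0.0860 in Shandong black and at 0.131, 0.518 and 0.250 in Luxi cattle. The breeds did not overlap in this ratio, which was also 1 of the 9 computed after the levels had been seen. Its exact two-sided permutation p was 0.1, the smallest possible, and is a description only.

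*CHRNE* (chr19:26484698-26489336, plus strand) encodes the epsilon subunit of the adult receptor. It was at 1.503, 2.97 and 2.75 FPKM in Shandong black and at 1.67, 16.6 and 20.7 FPKM in Luxi cattle. Luxi replicates 2 and 3 were at least 5.61 times as high as any other animal, while Luxi replicate 1 lay within the Shandong black range. The means were 2.41 ± 0.790 and 13.01 ± 10.03 FPKM (SD, n = 3), a log2 fold change of 1.59 (SE 0.74, adjusted p = 0.260 by limma). Without Luxi replicate 1 the log2 fold change was 2.55 and the difference was called (adjusted p = 0.0110), in the fit that called 596 of 9765 genes. With any other animal left out *CHRNE* was not called (adjusted p of at least 0.356 by limma). Relative to *CHRNA1*, *CHRNE* was at 0.123, 0.120 and 0.186 in Shandong black and at 0.116, 1.92 and 0.775 in Luxi cattle.

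The splicing of *CHRNE* also varied. The annotation holds transcripts in which the intron between an exon of 187 bases (chr19:26488557-26488743) and one of 107 bases (chr19:26488828-26488934) is spliced out, transcripts in which it is kept and transcripts that skip the shorter exon. Transcripts with the intron spliced out and both exons kept carried 64.2, 55.6 and 71.5% of the *CHRNE* FPKM in Shandong black and 71.7, 89.9 and 93.5% in Luxi cattle. Skipping of the shorter exon accounted for 35.8, 22.8 and 20.5% against 20.9, 10.1 and 6.10%. Luxi replicates 2 and 3, the animals with the most *CHRNE*, had the largest share of the fully spliced form. Among the other animals the share did not follow the level. Shandong black replicate 2 had the most *CHRNE* of these (2.97 FPKM) and the lowest share. Luxi replicate 1 was nearly level in share with Shandong black replicate 3.

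*CHRNG* (chr2:120180193-120185721, plus strand) encodes the gamma subunit of the fetal receptor. It was at 0.877, 1.19 and 0.841 FPKM in Shandong black and at 0.369, 0.390 and 1.65 FPKM in Luxi cattle. Luxi replicate 3 had the highest value of all and the other Luxi animals the lowest. *CHRNG* was not tested because both breed means, 0.970 ± 0.193 and 0.802 ± 0.733 FPKM (SD, n = 3), were under 1 FPKM. Without the filter its log2 fold change was -0.20 (adjusted p = 0.778 by limma).

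The share of *CHRNG* in the sum of *CHRNG* and *CHRNE* sets the level of the fetal subunit message beside that of the adult one. It was 36.8, 28.7 and 23.4% in Shandong black and 18.1, 2.29 and 7.37% in Luxi cattle. All Luxi animals, including Luxi replicate 1, lay below all Shandong black animals. The means were 29.6% ± 6.77 and 9.25% ± 8.07 (SD, n = 3), a difference of -20.4 percentage points. The exact two-sided permutation p was 0.1, the smallest that this design allows. By depth over annotated exons the shares were 42.9, 27.7 and 25.1% against 19.1, 1.00 and 8.10%. The low share went with a low *CHRNG* level in Luxi replicate 1, with a high *CHRNE* level in Luxi replicate 3 and with both in Luxi replicate 2.

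**Figure D4:**
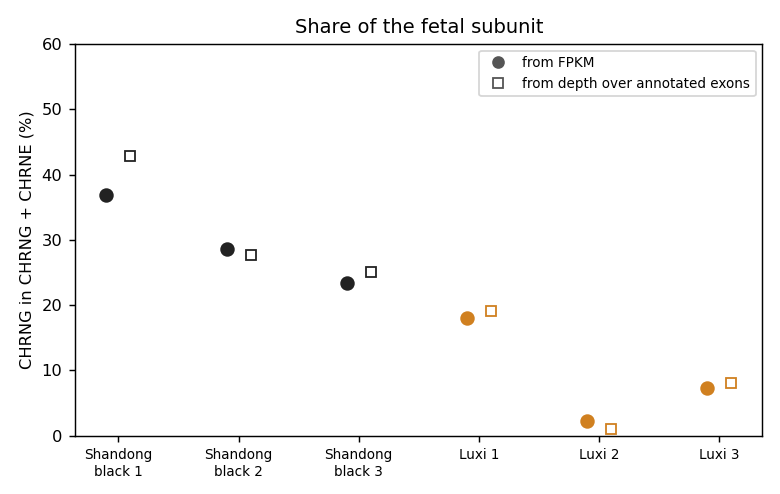
Share of *CHRNG* in *CHRNG* plus *CHRNE* (percent, vertical axis) in each animal, from FPKM (filled circles) and from depth over annotated exons (open squares). The Shandong black animals lie between 23.4 and 36.8% by FPKM and the Luxi animals between 2.29 and 18.1%.

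Genes that act with the members were described from lists chosen with earlier results of these data known, so their counts are descriptions. They are to be read against all genes tested, of which 20.0% were higher in all Luxi animals, 9.10% were lower in all and 21.9% had an unadjusted p under 0.05, with a median log2 fold change of 0.13. Of 16 signalling partners and scaffold proteins of MuSK, all tested, 0 were called, 4 were higher in all Luxi animals and 1 was lower in all, with a median log2 fold change of 0.35. These counts are near those shares of all genes. *SNTB1*, a syntrophin of the membrane scaffold, was at 2.39, 6.66 and 4.28 FPKM in Shandong black and at 8.42, 18.6 and 16.2 FPKM in Luxi cattle (log2 fold change 1.51, adjusted p = 0.0846 by limma). The kinase *PAK1* was at 1.36 to 2.33 FPKM against 2.86 to 5.87 FPKM (1.03, adjusted p = 0.0891). The small GTPase gene *RAC1* had a fitted difference of 2.07 (adjusted p = 0.361), with a single animal, Shandong black replicate 3, under 1 FPKM (0.172 FPKM).

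Of 12 genes of the synaptic cleft and basal lamina, 9 were tested and all 9 had a positive log2 fold change (62.6% of all genes tested), with a median of 0.67 (0.13 over all genes), and 6 were higher in all Luxi animals (20.0%). By the limma test on FPKM 0 of them were called, and 5 had an unadjusted p under 0.05 (21.9%). The list as a whole was not tested. *DAG1*, dystroglycan, a receptor for laminin and agrin, was at 37.7, 32.5 and 41.0 FPKM in Shandong black and at 67.5, 106 and 112 FPKM in Luxi cattle (log2 fold change 1.31, adjusted p = 0.0576). *LAMB2*, the laminin beta chain of the synaptic basal lamina, was at 13.4, 7.56 and 13.02 FPKM against 22.7, 27.6 and 29.4 FPKM (1.19, adjusted p = 0.0612). *HSPG2*, the proteoglycan perlecan, was at 17.3 to 20.3 FPKM against 31.4 to 39.1 FPKM (0.84, adjusted p = 0.0792). *ACHE*, the esterase that ends the signal, was at 0.0777 to 0.317 FPKM against 0.470 to 2.17 FPKM (0.69, adjusted p = 0.254). It passed the filter only through Luxi cattle (means 0.195 and 1.06 FPKM), so its place in the counts above rests on its Luxi values. By depth over annotated exons *ACHE* was below the filter and the breeds overlapped. By depth over annotated exons, *HSPG2* (log2 fold change 1.14, adjusted p = 0.0468) and the laminin gene *LAMA5* (1.19, adjusted p = 0.0193) were called higher in Luxi cattle. The genes *COLQ* and *COL13A1* were not analysed here. These proteins also surround the whole fibre and the vessels.

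Of 9 genes of neuregulin signalling and synaptic transcription, 5 were tested and 0 were called, with a median of 0.23. *ERBB2*, which pairs with other neuregulin receptors, was at 3.90 to 6.82 FPKM against 4.27 to 9.96 FPKM. *GABPB1*, a subunit of the factor that drives synaptic genes, was at 1.61 to 1.66 FPKM against 2.19 to 2.78 FPKM, without overlap (log2 fold change 0.40, adjusted p = 0.179 by limma). The 5 glycosylation enzymes that are mutated in congenital myasthenic syndromes had a median of 0.24 and 0 calls.

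Genes of the response to denervation lay on both sides. Of 13, 9 were tested, 0 were called, 5 had a positive log2 fold change and the median was 0.51. *MYOG*, the myogenic factor that activates receptor genes, was at 51.5, 12.4 and 42.2 FPKM in Shandong black and at 1.15, 7.89 and 24.4 FPKM in Luxi cattle (log2 fold change -1.99, adjusted p = 0.251 by limma). *SLN*, sarcolipin, was at 178 to 497 FPKM against 869 to 1701 FPKM (2.01, adjusted p = 0.0786). The ubiquitin ligase *TRIM63* was at 15.3 to 32.1 FPKM against 39.2 to 81.3 FPKM (1.16, adjusted p = 0.137). *MYH8*, the perinatal myosin, was at 1.43, 104 and 23.9 FPKM against 0.0140, 415 and 349 FPKM, so it was high in Luxi replicates 2 and 3 and lowest in Luxi replicate 1 (1.51, adjusted p = 0.750).

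Of the 6 genes of membrane excitability, 1 rose. *CLCN1*, the chloride channel of the muscle membrane, was at 3.03, 4.13 and 5.63 FPKM in Shandong black and at 8.95, 17.1 and 15.6 FPKM in Luxi cattle (log2 fold change 1.48, adjusted p = 0.0481 by limma). By depth over annotated exons it was not called (adjusted p = 0.0706). The muscle sodium channel *SCN4A*, which turns the endplate potential into an action potential, was at 5.91 to 10.04 FPKM against 12.6 to 32.6 FPKM, without overlap (1.33, adjusted p = 0.0965).

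Of 11 receptor subunits of neurons, 3 were found and only *CHRNA3* was tested, at 0.910, 1.53 and 0.417 FPKM in Shandong black and 0.886, 2.27 and 2.66 FPKM in Luxi cattle (log2 fold change 0.57, adjusted p = 0.333 by limma). It exceeded the muscle subunit *CHRNG* in 5 of 6 animals. The others found, *CHRNA10* and *CHRNB4*, stayed at or under 0.206 FPKM.

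Genes of other cells and of fibre type were measured beside the members. Of 9 motor nerve genes 1 was found, *NEFM*, at 1.58, 0.105 and 1.18 FPKM in Shandong black and listed at 0 in all Luxi animals. Of 8 Schwann cell genes 7 were found, 3 were tested and 0 called. *S100B* was at 118, 46.8 and 91.5 FPKM against 26.6, 5.76 and 21.2 FPKM (log2 fold change -2.33, adjusted p = 0.0826 by limma), while *PMP22* and *MBP* were higher in all Luxi animals. *MBP* passed the filter only through Luxi cattle (means 0.348 and 1.49 FPKM). Among 5 satellite cell genes 3 were tested and 0 called. Of 4 fat cell genes, 3 fell in Luxi cattle, namely *PLIN1* (-3.06), *CIDEC* (-2.78) and *ADIPOQ* (-3.50), and the list summed to 60.1 to 95.2 FPKM in Shandong black and to 1.09 to 10.3 FPKM in Luxi cattle.

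Of 14 skeletal muscle fibre genes, all tested, 1 fell. *TNNI1*, the slow troponin I, was at 438, 590 and 490 FPKM in Shandong black and at 88.3, 58.5 and 190 FPKM in Luxi cattle (log2 fold change -2.32, adjusted p = 0.0467 by limma). The fast troponin T *TNNT3* was at 49.1, 330 and 261 FPKM against 585, 2142 and 1600 FPKM (2.95, adjusted p = 0.101). The fast myosins *MYH2* and *MYH1* had log2 fold changes of 3.57 and 2.86 (adjusted p = 0.136 and 0.305). *MYH1* was at 51.0 and 59.7 FPKM in Luxi replicates 2 and 3 and at most 11.6 FPKM in the other animals, and the same 2 animals were highest for *CHRNE* and *CHRND*. The part of fibre type, fat and nerve content in the values of the members was not tested.

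**Figure D5:**
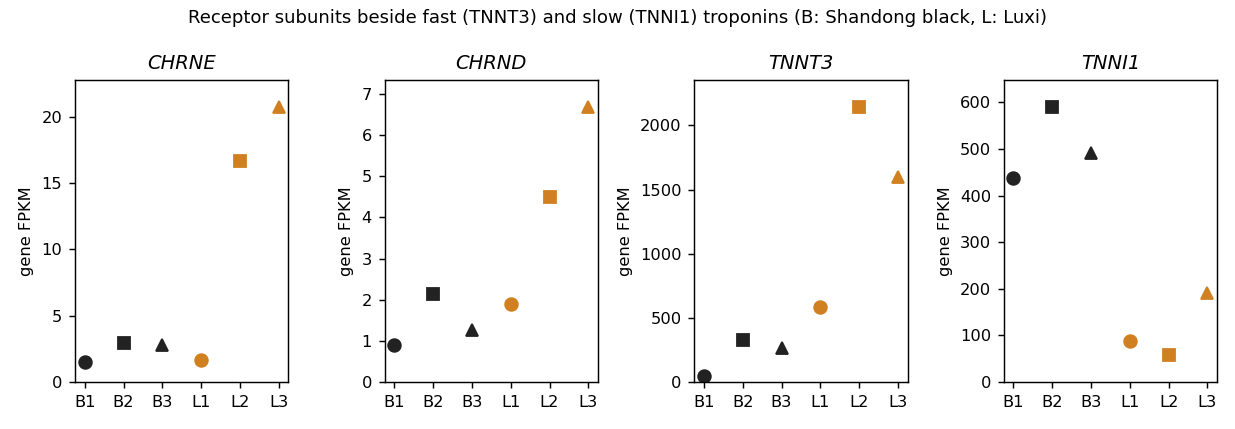
Gene FPKM of *CHRNE*, *CHRND*, the fast troponin gene *TNNT3* and the slow troponin gene *TNNI1* in each animal (B, Shandong black; L, Luxi). *CHRNE*, *CHRND* and *TNNT3* are highest in Luxi 2 and Luxi 3, and *TNNI1* is lower in all Luxi animals (58.5 to 190 FPKM) than in all Shandong black animals (438 to 590 FPKM).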

How the data were processed

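The longissimus dorsi muscle of 3 Shandong black and 3 Luxi cattle was studied, and breeds were taken from the labels. Per the methods, the authors used Fastp for trimming, HISAT for alignment to ARS-UCD1.2 and assembled each library separately with StringTie (version 1.3.3b in the file headers), guided by the NCBI annotation and by read strand. The deposited attributes of each transcript are its coverage (reads per base), FPKM (coverage per aligned gigabase) and TPM. A transcript without an entry in an animal was counted as 0. Without whole-number counts there is no count test and no counting error. The test of the study, Cuffdiff, needs alignments and was not run.

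Gene FPKM was summed as described in the report. The comparison was made with limma 3.58.1 (R 4.3.3), with a trended eBayes fit on log2(FPKM + 1) over the 9765 genes with a mean of at least 1 FPKM in at least 1 breed, and Benjamini-Hochberg adjustment. Fold changes are on this scale, which understates those of low genes. A call required an adjusted p under 0.05 and an absolute log2 fold change of at least 1. Shares and ratios were compared by exact two-sided permutation tests over animals. P-values measure the spread between animals of 1 farm per breed. Alternatives were another pseudocount, filter, scaling, block or transcript set, and each animal left out.

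The members and lists were chosen with earlier results of these data known. All members are named, and from other lists up to 4 genes each, those called and then those with the largest fitted change; *NEFM*, *LAMA5*, *CHRNA10* and *CHRNB4* and genes of the members' tissue check were added after their values were seen. Gene names come from the files, and the members were matched by symbol to the ARS-UCD2.0 gene table. Listed genes without a value are not analysed here, and some named genes are not reported here. The files hold no sequence, so none is printed.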

Additional observations from a re-analysis of the deposited data

How the results depend on the processing

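The number of members called was 0 in the fits with a pseudocount of 0.1, no FPKM filter, a mean of at least 5 FPKM, TPM, size factors, quantile normalization, no eBayes trend, reference transcripts only, assembled transcripts with any base on the exons, and depth over annotated exons. With each animal left out in turn it was 0 to 2, and the 2 were *CHRND* and *CHRNE* without Luxi replicate 1. That fit called 596 of 9765 genes against 249 with all animals, and the fit without Shandong black replicate 3 called 3. The direction of *AGRN*, *LRP4*, *MUSK*, *CHRNB1*, *CHRND* and *CHRNE* stayed in every fit in which they were tested, and reference transcripts alone left 6 members tested. The *DOK7* log2 fold change was -0.023 by depth over annotated exons. The *RAPSN* value was -0.014 with TPM, -0.028 with size factors, -0.055 with quantile normalization and -0.057 with reference transcripts only, and it ran from -0.29 (without Luxi replicate 2) to 0.49 (without Luxi replicate 1) with an animal left out. The *CHRNA1* value was 0.15 without Shandong black replicate 2 and 0.24 without Luxi replicate 2, and it ran from -0.52 to 0.24 with an animal left out. With an animal left out, *MUSK* ran from -0.59 to -0.05, *CHRNB1* from -0.59 to -0.20 and *AGRN* from 0.33 to 0.64. The cause of these changes was not tested. The transcripts assembled for *DOK7* had a shorter mean length, weighted by FPKM, in the Luxi animals. The median log2 fold change over all genes was 0.13 with FPKM and 0.03 with size factors. The difference in the *CHRNG* share was -41.9 percentage points with reference transcripts only, where *CHRNE* was listed at 0 in Shandong black replicate 1 and its share was therefore 100% (24.01 and 24.8% in the other Shandong black animals), -22.5 by depth over annotated exons and -24.8 to -16.8 with an animal left out, where the exact two-sided permutation p was 0.2.

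Animals of the breeds share only a number. The correlation of same-numbered animals' deviations from their breed means was 0.0905, 0.0899 and 0.0816, under the 0.1 required for pairing, although each animal correlated best with its own number. With the replicate block 0 members and 134 genes were called, and 3 members had an unadjusted p under 0.05.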
